A study of Mus musculus with 30 samples.

Results

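Resting splenic B cells without Irf4 were compared with wild-type resting B cells at day 0, before any stimulation. The comparison was chosen by the sample titles alone and holds 6 of the 30 arrays of the series, 3 in each group. The KO group was C57BL/6, B1-8i cells of genotype Irf4-/-, from mice that carry a doxycycline-inducible Irf4 on that background, given 0 ng/mL doxycycline (zero DOX). The WT group was Irf4+/+ cells of the same C57BL/6, B1-8i background, so both groups share the B1-8i allele, a rearranged heavy chain variable gene placed in the immunoglobulin locus. Each array came from the spleen cells of an individual mouse, enriched for B cells, and no source used here gives the age of the mice. The rest of the series follows the cells for up to 3 days in culture with CD40 ligand and cytokines. The series text says that 2 of the 3 replicates of a group were handled in parallel and 1 at another time, and does not say which. Levels are given as log2(intensity + 16), called the log2 level here, and a difference is the mean log2 level of KO minus that of WT.

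IRF4 is a transcription factor of the interferon regulatory factor family that binds DNA mostly together with a partner, either an ETS factor such as PU.1 or Spi-B or an AP-1 factor such as BATF. In B cells it is low at rest and induced by antigen receptor and CD40 signals, it drives plasma cell differentiation through Prdm1, and it takes part in the germinal centre programme, in part through Bcl6. Mice that lack Irf4 are known to have few plasma cells and very little serum antibody, and their marginal zone compartment is known to be altered.

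On the array, 2 probe sets carry the symbol Irf4. The brighter one read 12.75, 12.78 and 12.41 on the KO arrays, against 13.14, 13.17 and 13.22 on the WT arrays, a difference of -0.53 (SE 0.10, adjusted p = 0.022). The dimmer one read 8.21, 7.87 and 7.90 in KO, against 7.96, 8.07 and 8.05 in WT, and its arrays overlapped. The brighter set thus read high in Irf4-/- cells too. Its day 0 difference stayed called in 2 of the 6 fits with an array left out. At day 3 this set averaged 11.10 ± 0.29 in KO without doxycycline, 11.19 ± 0.17 at the high dose and 10.82 ± 0.052 in WT. It thus did not follow the doxycycline dose there. In KO cells at day 3 the dimmer set averaged 7.50 ± 0.17 without doxycycline, 13.01 ± 0.076 at its low dose and 13.58 ± 0.068 at its high dose (SD, n = 3 each), while in WT cells it averaged 7.32 ± 0.081 at that day. At day 3 it was therefore high where doxycycline was given and near the median probe set of these arrays (7.7) in both genotypes without it. Neither set checks the day 0 genotype labels, and which part of the transcript each covers was not analysed here. Of the 20 tested genes nearest to Irf4 in RefSeq gene order, 10 on each side, 2 changed at a limma adjusted p under 0.05 (10.0%, against 12.2% of all tested genes). These were Serpinb6b (0.89, SE 0.12) and Serpinb9 (1.02, SE 0.15), both of them serine protease inhibitors and both higher in KO.

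The B cell label held on all 6 arrays. Cd79b, a signalling chain of the B cell receptor, read 13.42, 13.44 and 13.60 in KO, against 13.82, 13.76 and 13.66 in WT. The summed intensity of 9 B cell markers was 67770, 70420 and 70690 in KO, against 79770, 78940 and 76140 in WT. The median intensity of an array lay between 188.7 and 199.3. Replicates correlated at 0.9772 to 0.9898 within KO and at 0.9931 to 0.9961 within WT. KO replicate 3 stood apart from the other KO arrays in correlation and had the lowest array weight (0.426, against 1.198 and 0.727 for KO replicates 1 and 2). KO replicate 2 had a 3′ minus 5′ difference of 0.254 on the log2 scale in its Gapdh control probe sets, while the other 5 arrays lay between -0.049 and -0.005. The X-inactivation transcript Xist read 7.03, 6.98 and 13.52 in KO, against 13.39, 13.33 and 13.46 in WT, and the Y-linked Eif2s3y read 10.64, 10.69 and 5.58 in KO, against 5.46, 5.42 and 5.40 in WT. KO replicates 1 and 2 therefore came from males, while KO replicate 3 and all WT replicates came from females. With a term for sex the KO difference rests on KO replicate 3 alone, and the sex of the mice and the distance of that array from its group cannot be told apart.

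In all, 1336 of 10980 tested genes changed (12.2%), 604 of them higher in KO (5.5%) and 732 lower in KO (6.67%), and 123 and 52 of these changed at least 2-fold. A gene is called changed at an adjusted p under 0.05 in a limma fit to the 6 arrays. In each of the 1336 called genes the arrays of the groups did not overlap, as in 4051 of the 10980 genes in all. With an array left out in turn, the count ran from 276 to 2882, the highest without KO replicate 3, and 253 genes were called in the main fit and in every one of these 6 fits. A fit with a sex term called 327 genes and shared 281 of them with the 1336. KO replicate 3 was the lowest of the KO arrays in 71.5% of the genes higher in KO, against 32.8% of all tested genes, and the highest of them in 73.2% of the genes lower in KO, against 40.9% of all tested genes.

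Transcripts of secreted antibody and of plasma cells made up 5 of the 12 largest decreases in KO cells. Jchain, whose product links IgM and IgA into secreted polymers, read 6.18, 6.06 and 6.25 in KO, against 13.12, 12.93 and 13.59 in WT, a difference of -7.05 (SE 0.16, adjusted p = 1.6e-06). Every KO array lay below the 7.7 that marks the median probe set of these arrays, while every WT array lay far above it. In tissue RNA, fewer cells of a type and less RNA per cell cannot be told apart, here and in the results that follow. Igha, the constant region of IgA, read 6.64, 6.60 and 6.63 in KO, against 11.90, 11.79 and 11.60 in WT (-5.14, SE 0.086, adjusted p = 3.4e-07), and both of its other tested probe sets changed the same way. Ighg3, the constant region of IgG3, read 7.88, 8.24 and 7.61 in KO, against 10.06, 10.01 and 11.51 in WT (-2.62, SE 0.39, adjusted p = 0.0091). Neither group overlapped the other in these genes, and WT replicate 3 was the highest WT array for Jchain and Ighg3 but the lowest for Igha.

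Ighm, the constant region of IgM, differed far more in 1 of its tested probe sets than in the others. The set that represents the gene read 13.87, 14.12 and 13.81 in KO, against 14.46, 14.39 and 14.66 in WT, a difference of -0.57 (SE 0.11, adjusted p = 0.018), and it stayed called in 2 of the 6 fits with an array left out. Another Ighm set read 6.07, 5.98 and 6.08 in KO, against 10.13, 10.16 and 13.04 in WT. There the KO arrays lay within 0.1 of each other on the log2 scale, while WT replicate 3 stood nearly 3 log2 units above the other WT arrays. The remaining tested Ighm sets stood at -0.98, -0.59, -0.37 and -0.21. They were not called (limma adjusted p over all tested sets 0.064, 0.16, 0.21 and 0.11). Summed over Ighm, Igha and Ighg3, intensity was 15260, 18140 and 14650 in KO, against 27450, 26060 and 31790 in WT, a ratio of 0.563 (exact permutation p = 0.1, two-sided, the smallest that 3 against 3 arrays allow). The other immunoglobulin constant genes in the list, among them Ighd, Ighg1 and Igkc, were not analysed here because no probe set carried their symbol alone. Of 11 tested immunoglobulin variable genes 7 were lower in KO and none higher, while 6.67% of all tested genes were lower. Their median difference was -0.95, and 6 of the 7 were kappa variable genes. Variable genes resemble each other in sequence, so a probe set can read several of them.

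**Figure D1:**
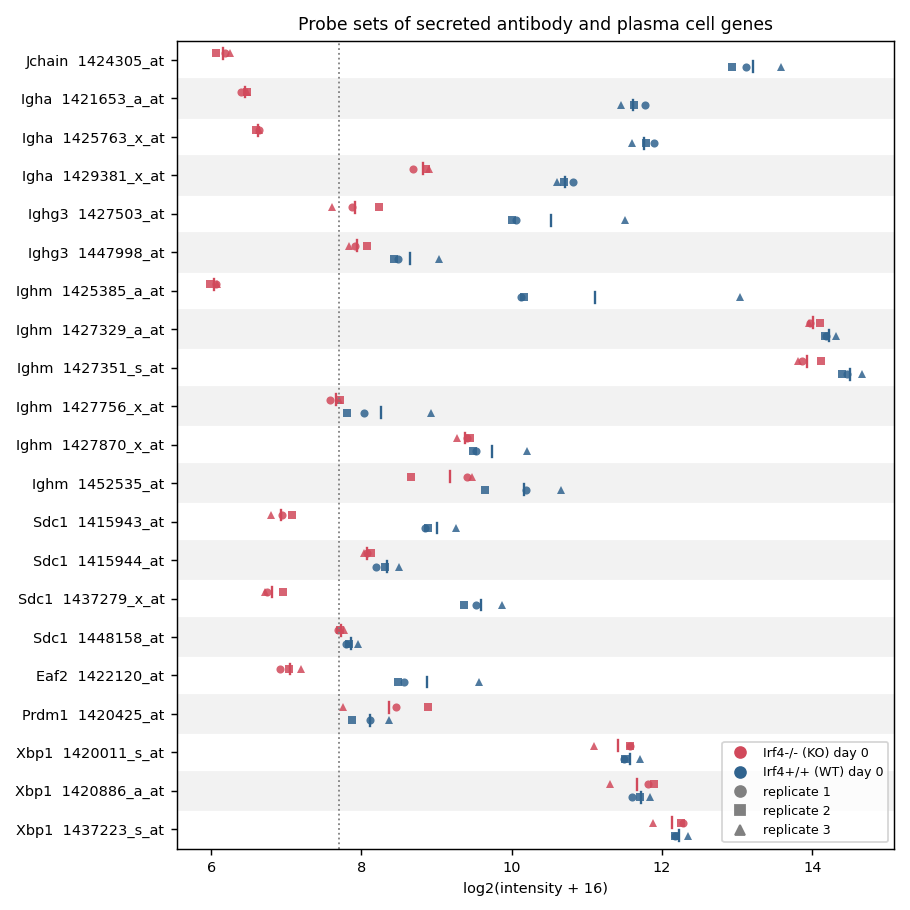
Log2(intensity + 16) of every tested probe set of 8 antibody and plasma cell genes on each day 0 array, KO in red above WT in blue, with replicates by marker shape, group means as vertical ticks and the median probe set (7.7) as a dotted line. Jchain, 2 Igha sets, 1 Ighm set and 1 Sdc1 set lie below 7 on all KO arrays, Xbp1 and Prdm1 overlap between the groups, and WT replicate 3 is the highest WT array in every Ighm set shown.

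Among other plasma cell genes Sdc1 and Eaf2 were lower, while Prdm1 and Xbp1 were not called. Sdc1, the syndecan used as the plasma cell surface marker CD138, read 6.74, 6.95 and 6.72 in KO, against 9.52, 9.37 and 9.87 in WT (-2.78, SE 0.13, adjusted p = 0.00015). Of its 3 other tested sets 1 was also called lower (-2.07). The remaining sets stood at -0.26 and -0.13 and were not called (limma adjusted p over all tested sets 0.098 and 0.22). Eaf2, a transcription elongation factor partner, read 6.92, 7.04 and 7.20 in KO, against 8.56, 8.48 and 9.56 in WT (-1.82, SE 0.27, adjusted p = 0.0089), and with a sex term its adjusted p was 0.076. The elongation factor gene Ell2 stood at 0.05 (adjusted p = 0.73). Sdc1 and Eaf2 were separate between the groups, with WT replicate 3 highest. Prdm1, which encodes the plasma cell regulator Blimp-1, read 8.46, 8.89 and 7.76 in KO, against 8.12, 7.87 and 8.37 in WT, and the groups overlapped (0.25, adjusted p = 0.56). Xbp1, the regulator of the secretory apparatus, stood at -0.09 (adjusted p = 0.64). Of the 25 genes in the plasma cell list 22 were tested, of which 7 were lower in KO and 2 higher (40.9% called, against 12.2% of all tested genes). Their median was -0.06, against -0.048 for all tested genes. Besides Jchain, Sdc1 and Eaf2 the lower ones were Glcci1 (-0.91), the adhesion molecule gene Epcam (-0.77), Tram2, of the protein translocation machinery (-0.70) and the protein disulfide isomerase family member Txndc5 (-0.49). The higher ones were Tent5c, a cytoplasmic poly(A) polymerase (1.13), and Cd28, a costimulatory receptor that T cells also carry (1.11). Tnfrsf17, the receptor BCMA, did not pass the intensity filter. Of 37 secretory pathway genes Pdia4 (0.60) was higher and Erlec1 (-0.44) lower (5.41% called, against 12.2% of all tested genes), and the median was -0.06. List members named here beyond the 4 of largest difference in a list were chosen after their values were seen.

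The other genes among the 12 largest decreases have no single theme in the fixed lists. Crisp3, a cysteine-rich secretory protein, read 5.84, 4.97 and 6.58 in KO, against 10.15, 10.07 and 10.09 in WT (-4.31, SE 0.35, adjusted p = 0.001). Kctd14, a BTB domain protein, read 7.62, 8.01 and 8.04 in KO, against 11.44, 11.44 and 11.05 in WT (-3.42, SE 0.15, adjusted p = 9.6e-05), and its 3 other tested probe sets changed the same way. Both were far below WT on every KO array. Gpr155, an integral membrane protein of the lysosome, read 7.50, 7.37 and 7.92 in KO, against 9.77, 9.59 and 9.44 in WT (-2.0). Tmem108 (-1.62) and Xkrx (-1.61) were likewise called in all 6 fits with an array left out. Gimap7, a GTPase of immunity-associated proteins, read 8.98, 9.02 and 10.31 in KO, against 11.14, 11.14 and 10.95 in WT (-1.64, SE 0.33, adjusted p = 0.023), and stayed called in 1 of those 6 fits. Trim5, of the TRIM family of antiviral restriction factors, read 9.16, 7.71 and 9.39 in KO, against 10.39, 10.40 and 10.35 in WT (-1.62, SE 0.39, adjusted p = 0.039), and stayed called in 2 of them. In these last genes 1 KO array stood away from the others, replicate 3 for Gimap7 and replicate 2 for Trim5.

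**Figure D2:**
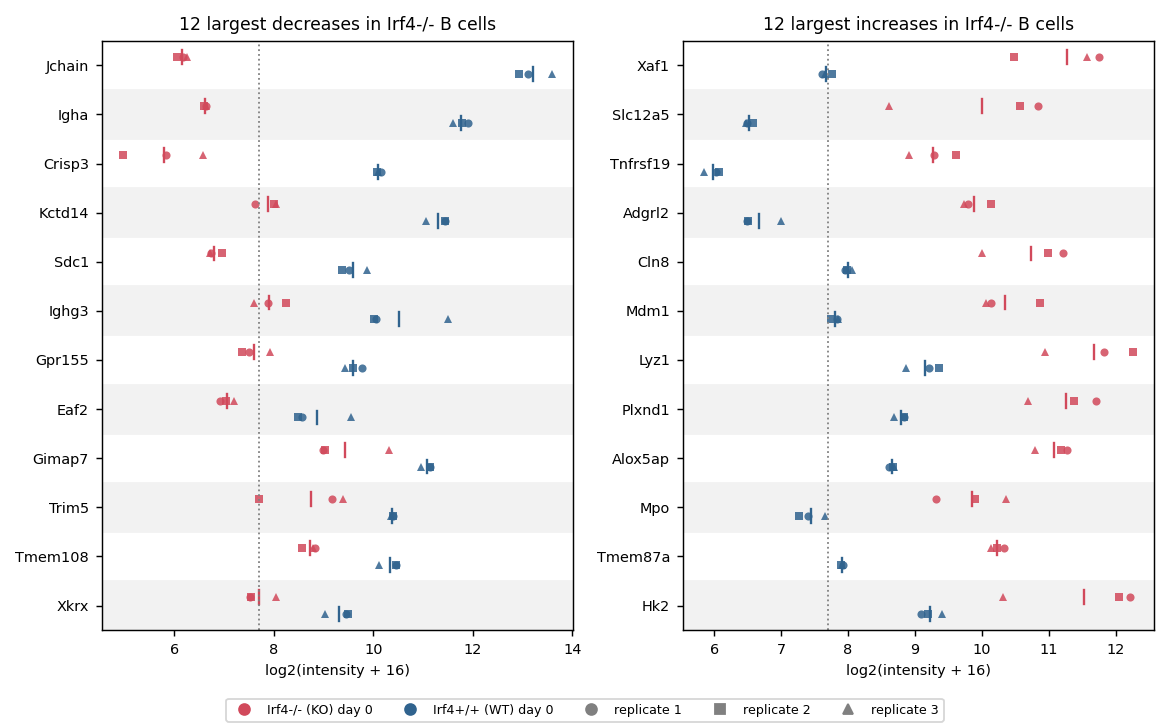
Log2(intensity + 16) on each day 0 array for the 12 largest decreases (left) and the 12 largest increases (right) among called genes whose groups do not overlap, KO in red above WT in blue, replicates by marker shape, means as vertical ticks and the median probe set (7.7) as a dotted line. For 5 of the genes on the left every KO array lies under that line, for 4 of the genes on the right every WT array does, and KO replicate 3 is the lowest KO array in 10 of the 12 genes on the right.

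The promoters of 4 genes that mark the range of the comparison are shown: the largest decrease (Jchain), the gene with the largest increase by its representing probe set (Xaf1), the follicular B cell receptor gene Fcer2a and the repressor gene Bcl6. Each is the 250 bases before the annotated start, written 5′ to 3′ on the gene's strand, from RefSeq on build GRCm38.p6, and capitals mark a match to a motif of IRF4 or its partners on either strand.
Jchain, chr5:88527898-88528147, minus strand: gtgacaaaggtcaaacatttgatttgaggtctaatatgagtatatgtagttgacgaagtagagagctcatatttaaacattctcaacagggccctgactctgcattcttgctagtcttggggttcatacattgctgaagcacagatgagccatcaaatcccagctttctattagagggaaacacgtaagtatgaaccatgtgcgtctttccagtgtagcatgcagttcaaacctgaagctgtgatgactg
Xaf1, chr11:72301379-72301628, plus strand: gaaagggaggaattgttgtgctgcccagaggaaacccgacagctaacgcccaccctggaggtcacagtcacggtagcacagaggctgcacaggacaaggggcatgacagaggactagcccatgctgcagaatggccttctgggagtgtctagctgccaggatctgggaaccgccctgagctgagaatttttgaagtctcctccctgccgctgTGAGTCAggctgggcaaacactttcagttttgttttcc
Fcer2a, chr8:3694175-3694424, minus strand: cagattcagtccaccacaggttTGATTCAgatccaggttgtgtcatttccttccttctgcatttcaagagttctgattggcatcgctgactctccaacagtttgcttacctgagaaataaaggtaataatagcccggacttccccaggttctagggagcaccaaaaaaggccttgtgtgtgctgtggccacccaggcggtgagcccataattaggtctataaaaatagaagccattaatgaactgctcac
Bcl6, chr16:23981284-23981533, minus strand: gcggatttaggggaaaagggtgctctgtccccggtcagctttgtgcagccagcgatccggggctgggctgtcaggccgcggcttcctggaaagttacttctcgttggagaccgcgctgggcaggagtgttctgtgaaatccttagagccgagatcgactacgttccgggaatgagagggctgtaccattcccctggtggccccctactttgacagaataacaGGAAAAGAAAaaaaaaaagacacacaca

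The motifs searched were the ETS-IRF composite element (GGAA and GAAA with any 2 bases between them), the interferon-stimulated response element (GAAA and GAAA with any 2 bases between them) and the AP-1 core TGANTCA, each on both strands. The first pair differ at 1 fixed base and so cannot match at the same place. Bcl6 held the ETS-IRF element 28 bases before the start, and the AP-1 core lay 38 bases before the start of Xaf1 and 228 bases before that of Fcer2a. No match was found in the Jchain window shown. Jchain and Xaf1 had 1 listed promoter each, while Fcer2a had 3 and Bcl6 had 2. Where several were listed, the promoter that matched the most of these motifs was shown. A match in the Fcer2a and Bcl6 windows was therefore favoured by that choice. Over windows that run from 250 bases before to 50 bases after the start, the ETS-IRF element was found in 4.02% of 498 genes higher in KO, 4.42% of 588 genes lower in KO and 2.91% of 8924 tested genes. For the response element these shares were 5.82%, 4.25% and 3.66%, and for the AP-1 core 8.63%, 5.44% and 6.02%. Over all 27025 genes with a promoter in the table the shares were 3.16%, 3.99% and 8.97%. A gene counted in these shares if any of its listed promoters held a match. The matches describe letters in a window and were not tested.

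Genes that separate B cell subsets moved in both directions. Fcer2a, the low-affinity IgE receptor CD23 of follicular B cells, read 11.55, 10.99 and 11.81 in KO, against 13.01, 13.02 and 12.88 in WT (-1.52, SE 0.19, adjusted p = 0.0051), and its other probe set changed the same way. Cr2, the complement receptor CD21, read 13.06, 12.90 and 13.11 in KO, against 13.19, 13.21 and 13.12 in WT (-0.15, adjusted p = 0.20). Fcer2a was thus separate between the groups by more than 1 log2 unit, while Cr2 was not called. Of 12 tested follicular and recirculation genes Fcer2a and Cxcr5, the receptor that guides cells into follicles (-0.38), were lower and the integrin chain Itgb2 (0.34) higher. That is 25.0% called, against 12.2% of all tested genes, and the median was -0.11. Without KO replicate 3, 5 of the 12 were lower and 4 higher, against 1665 lower and 1217 higher of all 10980 tested genes.

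Of 12 tested marginal zone genes 6 were higher in KO and 2 lower (66.7% called, against 12.2% of all tested genes), with a median of 0.54. Plxnd1, a semaphorin receptor, read 11.70, 11.38 and 10.69 in KO, against 8.84, 8.84 and 8.69 in WT (2.47, SE 0.23, adjusted p = 0.0017). S1pr3, a sphingosine phosphate receptor of marginal zone B cells, read 12.59, 12.11 and 11.97 in KO, against 11.25, 11.12 and 10.88 in WT (1.14, SE 0.17, adjusted p = 0.0091). The groups did not overlap in either gene, as in every called gene. Asb2 (1.07), Dtx1, a modulator of Notch signalling (0.87), Nebl (0.86) and Cd1d1, the lipid-presenting molecule CD1d (0.61), were also higher. Cd9, a tetraspanin, read 9.32, 9.62 and 9.67 in KO, against 10.59, 10.59 and 10.52 in WT (-1.03, SE 0.098, adjusted p = 0.0019), and the scavenger receptor Cd36 stood at -1.0 and was also called. Notch2 (0.09) was not called. Over the fits with an array left out 5 to 8 were higher and 1 or 2 lower.

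Of 7 tested genes of T-bet-expressing atypical B cells 4 were higher in KO, and markers of other cells moved beside them. Tbx21, which encodes the transcription factor T-bet, read 9.25, 9.49 and 9.12 in KO, against 7.20, 7.00 and 7.62 in WT (2.01, SE 0.17, adjusted p = 0.001). Zeb2, a zinc finger repressor, read 11.24, 11.63 and 10.44 in KO, against 9.59, 9.12 and 9.49 in WT (1.70, SE 0.28, adjusted p = 0.013). KO replicate 3 was the lowest KO array for both genes, and the groups did not overlap, as in every called gene. In this list Itgam, the integrin CD11b (1.28), and Ahnak (0.75) were higher too, none was lower, and the median was 0.79. Its share called was 57.1%, against 12.2% of all tested genes. Itgax, the integrin CD11c, read 9.03, 9.20 and 7.98 in KO, against 7.96, 7.77 and 8.12 in WT and was not called (0.79, adjusted p = 0.12). NK cells, which also express Tbx21 and Zeb2, and macrophages, which also express Itgam and Zeb2, had higher summed markers on the KO arrays, with values given below, and their part in these differences was not tested.

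Of 9 tested B-1 cell genes 3 were higher in KO and none lower (33.3% called, against 12.2% of all tested genes, median 0.58). The 3 were Spn, the sialophorin CD43 (1.24), Anxa2 (1.08) and Atxn1 (0.58). CD43 is also carried by T cells and myeloid cells. With a sex term none of the 3 was called and 1 gene of the list was lower. The surface markers Cd5 and the transcription factor gene Bhlhe41 did not pass the intensity filter. Of 9 tested immature and progenitor B cell genes 33.3% were called, against 12.2% of all tested genes. Cd93, a marker of transitional B cells (-0.94), and Vpreb3 (-0.89) were lower and Il7r, the interleukin-7 receptor chain (0.86), higher. All 3 were called in every fit with an array left out.

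Among germinal centre genes, Bcl6, the repressor that defines the germinal centre programme, read 10.50, 10.48 and 10.25 in KO, against 11.62, 11.53 and 11.34 in WT (-1.09, SE 0.10, adjusted p = 0.0017). Its other tested set stood at -0.53 and was not called (SE 0.15, limma adjusted p over all tested sets 0.056). Rgs13, a regulator of chemokine signalling in germinal centre B cells, read 7.64, 7.13 and 7.11 in KO, against 8.40, 8.12 and 9.56 in WT (-1.40, SE 0.35, adjusted p = 0.045), and stayed called in 2 of the 6 fits with an array left out. In its representing set Bcl6 was even across the arrays of each group, while the WT mean of Rgs13 was raised by WT replicate 3. Gna13 (-0.34) and the DNA glycosylase gene Neil1 (-0.31) were lower and Plxnb2 (0.77) higher. So 4 of 8 tested genes were lower and 1 higher (62.5% called, against 12.2% of all tested genes), with a median of -0.27. In the fits with an array left out 1 to 3 were lower, and with a sex term 1. Cd38 was not analysed here.

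**Figure D3:**
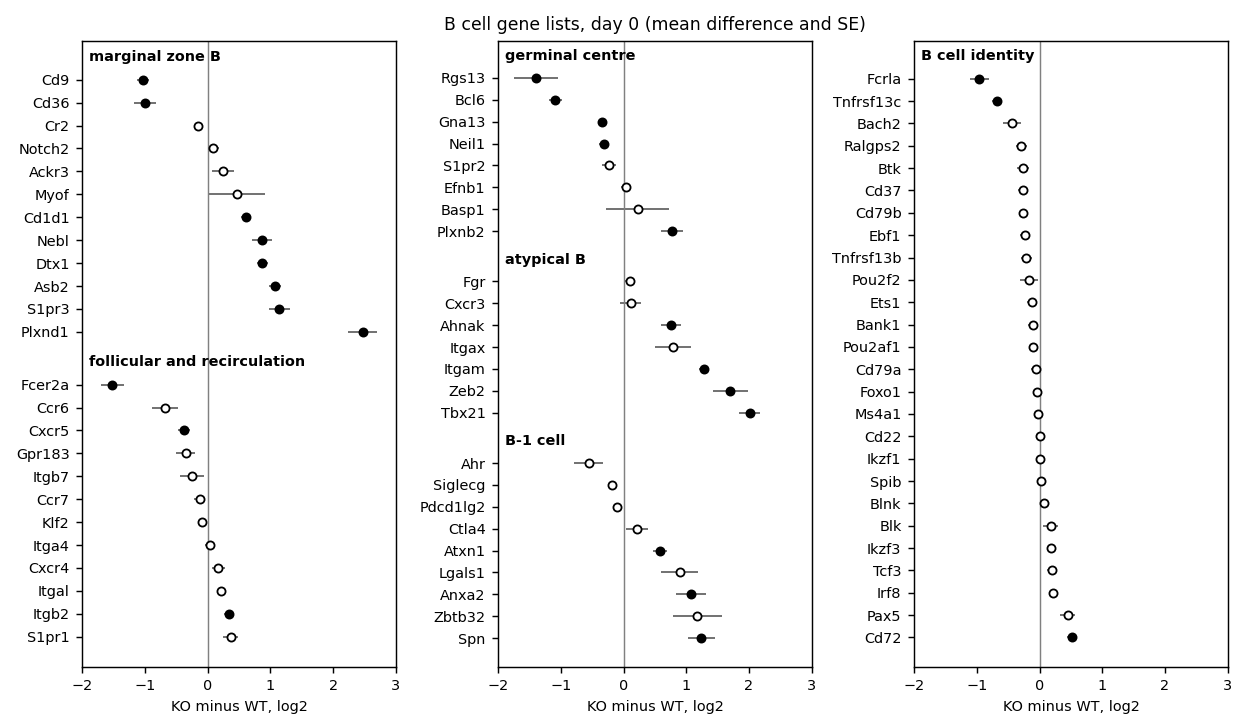
Difference in log2 level, KO minus WT at day 0, for each tested gene of 6 B cell lists, with the limma standard error as a bar, filled points for called genes and open points for the others. Fcer2a (-1.52), Rgs13 (-1.40) and Bcl6 (-1.09) lie far to the left, Plxnd1 (2.47) and Tbx21 (2.01) far to the right, and 23 of the 26 B cell identity genes are open points.

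Genes of B cell identity were called about as often as genes in general. Of 26 tested identity genes 2 were lower in KO, 1 higher and 23 not called, so 11.5% were called, against 12.2% of all tested genes, and the median was -0.08. Fcrla, an intracellular Fc receptor-like protein, read 10.88, 10.90 and 11.44 in KO, against 12.06, 12.09 and 11.96 in WT (-0.96, SE 0.15, adjusted p = 0.0099). Tnfrsf13c, the BAFF receptor that carries the survival signal of mature B cells, read 11.97, 12.08 and 12.26 in KO, against 12.81, 12.82 and 12.72 in WT (-0.68, SE 0.086, adjusted p = 0.0054). Cd72, an inhibitory coreceptor, read 13.35, 13.31 and 13.18 in KO, against 12.78, 12.76 and 12.77 in WT (0.51, SE 0.067, adjusted p = 0.0062). Each of these differences was under 1 log2 unit, and the groups were apart, as in every called gene. Pax5, the keeper of B cell identity, stood at 0.45 (adjusted p = 0.057), Bach2, a repressor of plasma cell differentiation, at -0.44 (0.083), and Tnfrsf13b, the BAFF and APRIL receptor TACI, at -0.21 (0.14). The 2 other tested probe sets of Bach2 were both called lower in the fit to every probe set. Without KO replicate 3, 7 of the 26 were lower and 2 higher, against 1665 lower and 1217 higher of all 10980 tested genes.

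Of IRF4's relatives and partners, 3 of 17 tested IRF and ETS genes were called (17.6%, against 12.2% of all tested genes). None was higher, and Fli1 (-0.66), Etv3 (-0.46) and Elf1 (-0.42), all of the ETS family, were lower. Irf8, the closest relative of Irf4, read 13.03, 13.09 and 13.09 in KO, against 12.86, 12.88 and 12.82 in WT (0.22, SE 0.059, adjusted p = 0.055), so its arrays were separate but the test was not passed. The partner genes Spib (0.02) and Spi1, which encodes PU.1 (-0.21), overlapped between the groups. With a sex term none of the 17 was called. Without KO replicate 3, 4 were higher and 4 lower, against 1217 higher and 1665 lower of all 10980 tested genes. With all 30 arrays 4 were higher and 7 lower, against 1481 higher and 2166 lower of all tested genes.

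Genes of the B cell receptor pathway were higher in 4 and lower in 1 of 22 tested cases (22.7% called, against 12.2% of all tested genes), with a median of 0.07. The higher ones were the Src family kinase Fyn (0.78, SE 0.11), Nfatc1, a calcium-responsive transcription factor (0.68, SE 0.12), the kinase Syk (0.39) and the adaptor Sh3kbp1 (0.26). Rasgrp3, a Ras activator, read 10.93, 10.41 and 11.65 in KO, against 12.16, 12.18 and 12.14 in WT (-1.16, SE 0.27, adjusted p = 0.035), and stayed called in 1 of the 6 fits with an array left out. Pik3ap1, the adaptor BCAP, read 12.44, 11.30 and 12.65 in KO, against 11.48, 11.47 and 11.45 in WT and was not called (0.66, adjusted p = 0.19), since KO replicate 2 lay below the WT arrays. With a sex term 1 of the 22 was higher.

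In KO cells 22.2% of the NF-kB and CD40 response genes and 13.6% of the immediate early genes were higher, against 5.5% of all tested genes, and none of either list was lower. No MHC class II gene was called by limma in its representing probe set among 10 tested (median -0.08), and 2 had an unadjusted p under 0.05. With a sex term and with all 30 arrays the count was also 0. Without KO replicate 3 the count was 3, all lower, against 1665 lower of all 10980 tested genes. In the fit to every tested probe set, 1 other set of Ciita was called higher and 1 other set of H2-DMa lower. Among 18 tested genes of the NF-kB and CD40 response, 4 were higher: the costimulatory ligand Cd86 (0.97), Traf1 (0.56), the NF-kB inhibitor Tnfaip3 (0.37) and Nfkbia (0.24). Cd86 read 11.89, 11.75 and 10.93 in KO, against 10.49, 10.41 and 10.78 in WT, and stayed called in 1 of the 6 fits with an array left out. Of 22 immediate early genes, which respond to tissue handling as well as to receptor signals, Egr2 (0.79), Fosb (0.51) and Atf3 (0.37) were higher and none lower, with a median of -0.03. Without KO replicate 3, 3 were higher and 7 lower, against 1217 higher and 1665 lower of all 10980 tested genes. With a sex term none of the NF-kB and CD40 genes and 1 immediate early gene was higher.

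In the Bcl2 family, Bmf, a promoter of apoptosis, read 9.27, 9.46 and 9.92 in KO, against 10.88, 10.61 and 10.36 in WT (-1.07, SE 0.19, adjusted p = 0.016). Bcl2, the survival factor, read 11.43, 11.27 and 11.77 in KO, against 12.18, 12.15 and 12.12 in WT (-0.66, SE 0.12, adjusted p = 0.019). Bcl2l11, which encodes the apoptosis promoter Bim, read 11.87, 11.80 and 11.44 in KO, against 11.24, 11.09 and 11.19 in WT (0.53, SE 0.12, adjusted p = 0.03). These were the 2 lower and the 1 higher of 14 tested members (21.4% called, against 12.2% of all tested genes). None of the 14 was called with a sex term. Of 36 cell cycle genes 1 was called, the kinetochore motor Cenpe (0.86), which is 2.78%, against 12.2% of all tested genes. The median was 0.27, above the -0.048 of all genes. The proliferation marker Mki67 read 10.35, 11.03 and 9.90 in KO, against 9.06, 9.04 and 10.22 in WT, so that WT replicate 3 lay within the range of the KO arrays (0.99, adjusted p = 0.12). Of these 36 genes 13 were higher without KO replicate 3, and 20 in a fit to all 30 arrays. Of all 10980 tested genes 1217 and 1481 were higher in these fits.

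Xaf1, an interferon-inducible factor that binds the apoptosis inhibitor XIAP, had a pair of tested probe sets that went opposite ways. The set that represents the gene, which had the largest increase of any representing set, read 11.75, 10.48 and 11.57 in KO, against 7.61, 7.76 and 7.66 in WT (3.59, SE 0.30, adjusted p = 0.0011). The other set was lower and was also called, with 8.01, 8.73 and 7.74 in KO, against 9.80, 9.95 and 9.74 in WT (-1.67). KO replicate 2 stood apart in both sets, lowest in the first and highest in the second. The 2 sets thus disagree, and no direction for the gene as a whole follows from them.

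Interferon response genes were called in both directions. Of 29 tested, 6 were higher and 6 lower in KO (41.4% called, against 12.2% of all tested genes), with a median of -0.23. Without Xaf1, whose direction is in doubt, 5 of 28 were higher and 6 lower, with a median of -0.25. Besides Xaf1 the higher ones were Ifih1, the RNA sensor MDA5 (0.99), Gbp2 (0.91), Oas2 (0.62), Oas1a (0.58) and Gbp3 (0.33). The lower ones were Cmpk2 (-1.0), Usp18, which restrains interferon signalling (-0.98), Mx1 (-0.82), Igtp (-0.56), Stat2 (-0.51) and Ifi27l2a (-0.30). Cmpk2 read 8.25, 8.25 and 8.36 in KO, against 9.27, 9.37 and 9.21 in WT (SE 0.07, adjusted p = 0.00069). Called genes of the same response thus lay on either side of WT. Without KO replicate 2, 3 were lower, and with a sex term 4 were higher, Xaf1 among them, and 2 lower. Of all 10980 tested genes 291 were lower without KO replicate 2, and with a sex term 194 were higher and 133 lower.

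The remaining increases include membrane proteins, enzymes and myeloid genes. Slc12a5, a potassium chloride cotransporter known from neurons, read 10.84, 10.57 and 8.61 in KO, against 6.49, 6.58 and 6.47 in WT (3.49, SE 0.52, adjusted p = 0.0091). Tnfrsf19, the TNF receptor family member TROY, read 9.29, 9.61 and 8.91 in KO, against 6.03, 6.07 and 5.85 in WT (3.29, SE 0.17, adjusted p = 0.00015). Adgrl2, the adhesion receptor latrophilin 2, read 9.80, 10.13 and 9.73 in KO, against 6.49, 6.51 and 6.99 in WT (3.23, SE 0.16, adjusted p = 0.00015). In all 3 genes the WT arrays lay below the median probe set, so WT levels there are near the low end of the scale. Cln8, an endoplasmic reticulum protein (2.73, SE 0.28), and Mdm1, a centriole protein (2.55, SE 0.20), were called in all 6 fits with an array left out. Tmem87a read 10.33, 10.22 and 10.13 in KO, against 7.93, 7.90 and 7.91 in WT (2.32, SE 0.07, adjusted p = 9.1e-06). Its standard error was the smallest of the 12 largest increases. Hk2, a hexokinase of glycolysis, read 12.22, 12.05 and 10.32 in KO, against 9.09, 9.19 and 9.40 in WT (2.30, SE 0.45, adjusted p = 0.022), with KO replicate 3 well below the other KO arrays, and stayed called in 1 of those 6 fits.

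Several macrophage transcripts were higher in the KO samples and varied widely between them. Lyz1, a lysozyme of myeloid cells, read 11.83, 12.26 and 10.94 in KO, against 9.21, 9.36 and 8.86 in WT (2.53, SE 0.31, adjusted p = 0.0051). Alox5ap, the activating protein of leukotriene synthesis, read 11.27, 11.19 and 10.79 in KO, against 8.61, 8.67 and 8.69 in WT (2.43, SE 0.12, adjusted p = 0.00015). Both were higher on every KO array, while Csf1r, the receptor for the macrophage growth factor, read 11.91, 12.59 and 8.52 in KO, against 8.93, 8.89 and 8.43 in WT and was not called (2.25, adjusted p = 0.14). KO replicate 3 thus lay within the WT range for Csf1r and above it for Lyz1. Of 15 tested monocyte and macrophage markers 6 were higher and none lower, with a median of 2.00, the others being Lyz2 (2.15), Spic, a factor of red pulp macrophages (2.14), Ccl6 (1.79) and Ms4a7 (1.19). Without KO replicate 3, 14 of the 15 were higher, against 1217 of all 10980 tested genes in that fit. The summed intensity of 21 such markers was 32930, 46530 and 9205 in KO, against 5652, 5753 and 5065 in WT (ratio 5.38, exact permutation p = 0.1), and 19 of the 21 exceeded the median probe set on at least 1 array.

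Several granule genes known from neutrophil precursors were higher on all 3 KO arrays, with a different order among them. Mpo, myeloperoxidase, read 9.31, 9.90 and 10.36 in KO, against 7.40, 7.26 and 7.66 in WT (2.41, SE 0.24, adjusted p = 0.0025). Prtn3, proteinase 3, read 9.20, 9.50 and 9.97 in KO, against 7.45, 7.28 and 7.53 in WT (2.14, SE 0.18, adjusted p = 0.0012), and Ctsg (1.66) was higher too. S100a8, another gene of the neutrophil list, read 8.90, 9.74 and 8.63 in KO, against 7.12, 7.16 and 7.19 in WT (1.93), with KO replicate 3 the lowest KO array. For Mpo and Prtn3 it was KO replicate 3, the lowest array for macrophage genes, that read highest. Mpo, Prtn3, Ctsg and S100a8 were 4 of 9 tested neutrophil markers (44.4% called, against 12.2% of all tested genes), with a median of 0.28. Elane, a granule protease of the same precursors (0.03), and the list members Cxcr2 (-0.10), Csf3r (-0.03) and Lcn2 (-0.07) were not called. S100a9, Ltf and Camp did not pass the intensity filter. The 16 markers summed to 5403, 6927 and 6341 in KO, against 3312, 3364 and 3587 in WT.

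Some markers of NK and T cells were also higher. Gzma, granzyme A of cytotoxic cells, read 9.75, 10.26 and 9.59 in KO, against 7.80, 7.80 and 7.95 in WT (2.02, SE 0.16, adjusted p = 0.001). Nkg7, a cytotoxic granule protein, read 9.87, 10.21 and 10.06 in KO, against 8.53, 8.14 and 8.78 in WT (1.56, SE 0.16, adjusted p = 0.0028). With Prf1 (1.17), Gzmb (0.86), Klrd1 (0.68) and Klrk1 (0.60) these made 6 of 9 tested NK markers higher (66.7% called, against 12.2% of all tested genes), and 2 to 5 with an array left out. The 10 markers summed to 5887, 7106 and 5721 in KO, against 3324, 2903 and 3755 in WT, a ratio of 1.87. Of 9 T cell markers Cd3g (1.25) and Cd3d (0.66), chains of the T cell receptor complex, were higher (22.2% called, against 12.2% of all tested genes). Cd4 (-0.14), Cd8a (0.06) and Thy1 (-0.18) were not called. The 13 T cell markers summed to 4496, 4362 and 4404 in KO, against 3525, 3893 and 4166 in WT.

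Other cell types gave smaller differences. Of 6 erythroid markers Car1, a carbonic anhydrase (1.42), was higher and Epb42 (-0.30) lower. Pf4 (1.20) and Ppbp (1.01), chemokines of platelets, were higher among 7 tested platelet markers, and Kit (0.43) among 4 mast cell markers. Of 5 dendritic cell markers Siglech, of plasmacytoid dendritic cells (0.36), was higher. The shares called were 33.3% (erythroid), 28.6% (platelet), 25.0% (mast cell) and 20.0% (dendritic cell), against 12.2% of all tested genes. None of 5 stromal and endothelial markers was called by limma in the main fit, in any fit with an array left out, with a sex term or with all 30 arrays, and 0 had an unadjusted p under 0.05. The summed intensities of the erythroid list (1.48), the platelet list (1.21) and the mast cell list (1.09), given as ratios of KO to WT means, did not overlap between the groups, while those of the dendritic list (1.18) and the stromal list (0.992) did. The summed plasma cell list, by contrast, was 45480, 44580 and 39390 in KO, against 51870, 49880 and 60890 in WT, a ratio of 0.796. How far cells other than B cells account for any gene higher in KO was not tested.

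**Figure D4:**
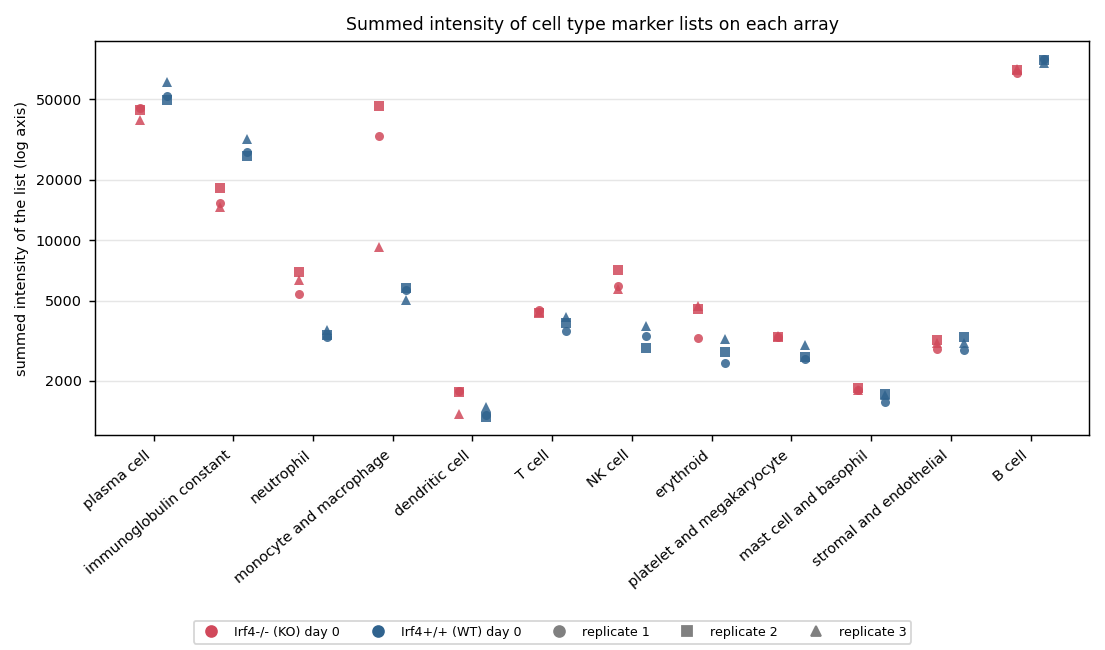
Summed intensity (logarithmic axis) of each cell type marker list on each day 0 array, KO in red left of WT in blue, with replicates by marker shape. The macrophage list spans 9205 to 46530 in KO, against 5065 to 5753 in WT, and the immunoglobulin constant list spans 14650 to 18140 in KO, against 26060 to 31790 in WT.

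The same genotypes were measured on other arrays after 3 days of culture without doxycycline, and the labels do not say whether those cells came from the same mice. There 3280 of the 10980 genes were called (29.9%), 1881 higher (17.1%) and 1399 lower (12.7%). Of the 604 genes higher at day 0, 348 were higher and 30 lower at day 3. Of the 732 genes lower at day 0, 287 were lower and 56 higher at day 3. Among the 12 largest increases at day 0, 9 were called higher at day 3, and among the 12 largest decreases 10 were called lower. At day 3 too, KO replicates 1 and 2 read male, while KO replicate 3 and all WT replicates read female. That a difference is shared by both days thus does not by itself tell genotype from sex. Of the KO arrays only replicate 3 has the sex of the WT arrays. On it Jchain read 6.25 at day 0 and 6.64 at day 3, against 12.93 to 13.59 and 13.43 to 13.47 in WT. The genotype difference itself changed between the days, by an interaction test over both pairs of groups, in 1801 genes (16.4%). Jchain (-6.90 at day 3), Crisp3 (-5.34), Sdc1 (-2.33), Gpr155 (-1.96) and Tmem87a (2.08) were called at both days and not in the interaction test. With a replicate block within genotype, chosen after seeing the data, that test also called Crisp3 (1.03, adjusted p = 0.039), Xaf1 (-0.97, adjusted p = 0.012) and Plxnd1 (0.55, adjusted p = 0.011), given as the day 0 less the day 3 difference. Prdm1 and Xbp1, not called at day 0, were lower at day 3 (-1.70 and -0.72). Fcer2a (-0.40 at day 3) and Bcl6 (-0.31) were lower there too.

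**Figure D5:**
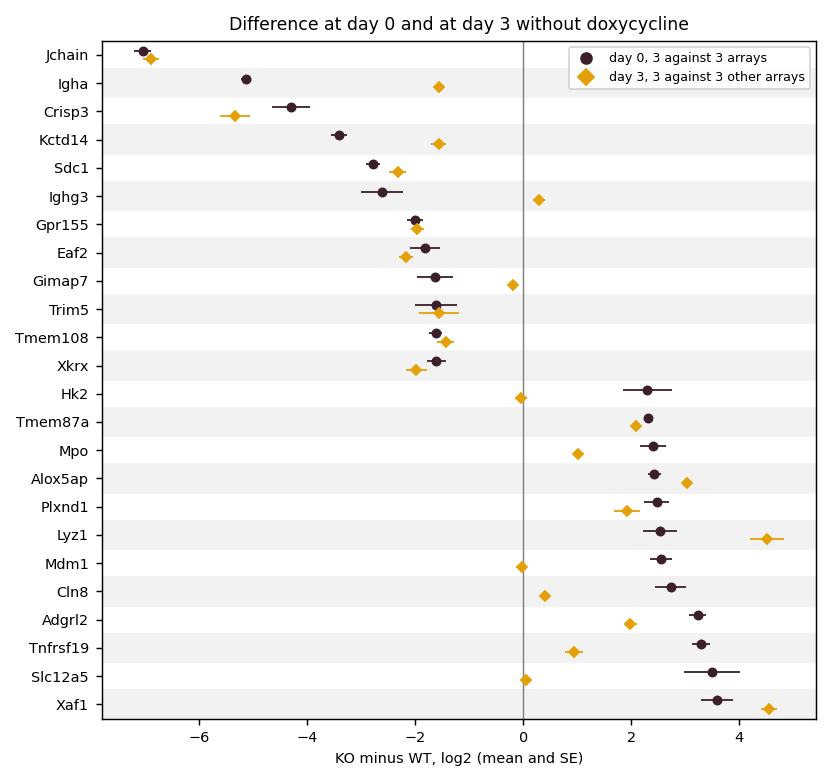
Difference in log2 level, KO minus WT, with its standard error, at day 0 (dark circles) and at day 3 without doxycycline (yellow diamonds) for the 12 largest decreases and 12 largest increases at day 0, ordered by the day 0 difference. Jchain lies near -7 at both days (-7.05 and -6.90), while Ighg3 (0.29), Slc12a5 (0.05), Mdm1 (-0.03) and Hk2 (-0.04) lie near 0 at day 3.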

How the data were processed

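RNA of each sample was hybridised to an Affymetrix mouse expression array. The deposited values are linear intensities, which the authors normalized with the perfect-match model of D-Chip, per the series text. MAS5 also appears in the submitters' processing notes, and its role is not stated there. For this comparison the deposited intensities were raised by 16, put on the log2 scale and not normalized further. Of 45101 probe sets 64 are controls, and 34945 carry 1 gene symbol in the platform annotation, 932 several and 9160 none. Names were updated by Entrez identifier through RefSeq GRCm38.p6, which matched 34741 and left 204 as annotated. Testing required at least 3 of the 6 arrays to exceed 192.5, their median intensity, and a gene was represented by its tested set of highest mean (19038 sets, 10980 genes, 4718 of them with several tested sets).

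Group means of the 6 arrays were fitted with limma 3.58.1 in R 4.3.3 (lmFit, contrasts.fit, eBayes), and Benjamini-Hochberg adjustment ran over all tested genes, with 0.05 as the threshold. Only these 6 arrays entered the fit because the KO day 0 arrays varied more than other groups. SE is limma's standard error. Sums over marker lists were compared by exact permutation, and single arrays give no counting depth, so their number limits the precision. The fit was tested on simulated data. Alternatives changed the arrays fitted, a sex term, a replicate block, normalization, the pseudocount (1, 64), the filter, array weights, the variance model and the probe sets counted, and left out each array.

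Named genes are the 12 largest changes each way among called genes without overlap of arrays, passing over unnamed transcripts and immunoglobulin variable genes, a panel of B cell regulators, up to 4 members of each list with the largest difference, and the 10 tested genes on each side of Irf4. The comparison, the lists and the rules were chosen with earlier results of these data known.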

Additional observations from a re-analysis of the deposited data

Results flagged for a closer look

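The genotype difference of 13 of the 24 genes with the largest changes was itself different at day 0 and at day 3. This was by limma's interaction term over the 12 arrays of both days (54.2%, against 16.4% of all tested genes). The 24 genes were picked by their day 0 differences, and the interaction uses the same day 0 values. A smaller difference at day 3 than at day 0 was therefore favoured by that choice. With a replicate block within genotype, chosen after seeing the data, 16 of the 24 were called, with the addition of Crisp3 (1.03), Xaf1 (-0.97) and Plxnd1 (0.55). In the fit without the block, given as the day 0 difference less the day 3 difference on the log2 scale, this was -3.58 for Igha, -2.91 for Ighg3, -1.85 for Kctd14 and -1.45 for Gimap7, which were further below WT at day 0. It was 3.44 for Slc12a5, 2.58 for Mdm1, 2.35 for Tnfrsf19, 2.34 for Cln8, 2.34 for Hk2, 1.39 for Mpo and 1.25 for Adgrl2, which were further above WT at day 0. It was -1.99 for Lyz1 and -0.60 for Alox5ap, which were further above WT at day 3. Day 3 cells had been cultured and stimulated, so time, culture and stimulation cannot be told apart here.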

How the results depend on the processing

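Called genes at day 0 numbered 3647 in a fit to all 30 arrays (1481 higher, 2166 lower in KO), 327 with a sex term on the 6 arrays (194, 133), 3242 with that term on all 30 (1350, 1892), 2862 with array weights (1205, 1657) and 2291 when every probe set was counted (1134, 1157). Leaving out each array gave 276 to 2882 called, 166 to 1217 higher and 110 to 1665 lower: 412, 636 and 2882 without KO replicates 1, 2 and 3, and 276, 298 and 737 without WT replicates 1, 2 and 3. Fewer arrays lower these counts by construction, and the cause of the increase without KO replicate 3 was not tested. Centring arrays on their medians gave 687 higher and 552 lower (55.4% higher, against 45.2%). Quantile normalization, pseudocounts of 1 and 64, no filter, the stricter filter and trended robust variances gave 1189 to 1508 called. Among the named genes no called result changed sign under the alternatives run, with 1 exception. Counting every probe set adds the Xaf1 set called at -1.67, against 3.59 for the set that represents the gene. It also adds 1 Ciita set called higher, where the representing set stood at -0.20 and was not called. For the named genes, 2385 results under the alternatives kept direction and side of the threshold, 221 lost the call and 127 gained it; for list counts 769 stayed within 1.5 times and 275 moved. The interaction of day and genotype called 2929 genes with all 30 arrays.

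The replicate numbers did not pair KO with WT: deviations of same-numbered arrays correlated at -0.09, -0.091 and -0.152, and 0 KO arrays correlated best with the WT array of their number. With the replicate block 520 genes were called (314 higher, 206 lower). Between days the numbers paired the KO arrays (0.319 to 0.367) but not all WT arrays (-0.084 to 0.282), and the block within genotype, chosen after seeing the data, gave 1865 genes in the interaction test.

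With 3 arrays a group, precision is limited, most of all where KO arrays differ. The sex of the mice, the handling of 1 replicate at another time and the share of other cells were not balanced or not stated, and 1 probe set stands for a gene. P-values measure the spread between arrays of individual mice, and these differences can be part of that spread. The interaction fit without a block treats arrays of both days as independent, although KO arrays of the same number correlated between days (0.319 to 0.367).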

Other observations

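Further genes outside the lists differed between the groups; they were chosen after their values were seen. Il10, the regulatory cytokine, read 10.79, 10.34 and 10.25 in KO, against 8.34, 8.31 and 8.58 in WT (2.05, SE 0.15, adjusted p = 0.00069). Maf, a transcription factor that activates Il10 in several lymphocytes, read 12.06, 12.13 and 11.95 in KO, against 10.40, 10.31 and 10.61 in WT (1.61, SE 0.093, adjusted p = 0.00025). Both were called in all 6 fits with an array left out, and at day 3 they stood at 0.58 and 3.62. Ifng, interferon gamma, read 7.87, 8.09 and 7.97 in KO, against 7.07, 6.94 and 7.09 in WT (0.94, SE 0.081, adjusted p = 0.0013), and the chemokine genes Ccl3 (1.43) and Ccl9 (1.21) were higher too. Lifr, the leukemia inhibitory factor receptor, read 9.64, 9.6 and 9.57 in KO, against 7.87, 7.63 and 8.09 in WT (1.74). Id2, an inhibitor of E proteins, read 12.20, 12.43 and 11.17 in KO, against 10.10, 10.05 and 10.32 in WT (1.78, adjusted p = 0.013), and was called in 3 of those 6 fits.

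Gt(ROSA)26Sor, the noncoding transcript of the Rosa26 locus, was lower in KO, with 10.02, 9.96 and 10.31 in KO, against 11.49, 11.49 and 11.62 in WT (-1.44, SE 0.10, adjusted p = 0.00069). It was called in all 6 fits with an array left out and stood at -0.82 at day 3. Ints4, an Integrator subunit, which lies on chromosome 7 as Kctd14 does, read 9.10, 9.22 and 9.34 in KO, against 10.67, 10.60 and 10.58 in WT (-1.40, SE 0.078, adjusted p = 0.00024). Kmo, of tryptophan breakdown (-1.49), Brwd1 (-1.35) and Csrp2 (-1.23) were also lower.

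KO replicate 2 stood apart from the other KO arrays in Trim34a, a gene of the TRIM family, with 10.38, 7.04 and 10.89 in KO, against 12.27, 12.23 and 12.23 in WT (-2.81, adjusted p = 0.079). The same array was the lowest KO array for Xaf1 and Trim5.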
